A study of Bos taurus with 10 samples.

Results

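The lactating and the juvenile mammary gland of cattle were compared at single CG sites, 1 library each, to see where DNA methylation was higher or lower in the lactating gland. A CG site was kept when it lay on an autosome and had at least 8 reads in both libraries at the same position and strand. This left 130806 sites, 28.9 % of the 452664 autosomal CG sites that reached 8 reads in at least 1 of the 10 tissue libraries of the study. They made up 81.9 % of the 159729 sites of the lactating library and 93.3 % of the 140189 sites of the juvenile library, and belonged to 87883 CG dinucleotides, of which 42923 were read on both strands.

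Tissues came from Dominette, the cow of the cattle reference genome, and animals related to that cow, and were read by reduced representation bisulphite sequencing. In this assay MspI cuts the DNA at CCGG whatever its methylation, so the reads gather in CG-rich DNA, and bisulphite turns an unmethylated cytosine into one read as T. The lactating sample was mammary gland of an adult female at day 90 of lactation. The juvenile sample was mammary parenchyma of a juvenile female. The other 8 tissues were skeletal muscle near the caesarean site, whole testes, intercaruncular uterus, frontal cortex, abomasum, ileum, rumen and nucleated blood cells. By the study's sample list frontal cortex, abomasum and ileum were juvenile, rumen was fetal, and the remaining tissues were adult. Every group held 1 library, and the lactating and the juvenile gland differed in age and lactation at once. The animals of both glands are not named in the sources. Effects of animal, age and lactation cannot be told apart. A change in the mix of cell types and a change within cells cannot be told apart either, since whole tissue was used. The level of a site is the percentage of its reads that were methylated, and differences are given in points as lactating minus juvenile.

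In mammals a methyl group is carried mainly by cytosines followed by guanine, and the maintenance methyltransferase copies it onto the new strand after each replication, so both strands of a CG usually match. CG-rich promoters are mostly free of it and most other CGs carry it. The juvenile gland consists of ducts growing into a fat pad, while in lactation the gland is filled with secretory alveoli, and milk protein genes are known to be less methylated in tissue that secretes milk. Genes are not named here, because an annotation of the genome build of the data was not used here.

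A call needed a difference of at least 25 points and a q below 0.01 (Fisher's exact test, two-sided, on methylated and unmethylated reads) with Benjamini-Hochberg adjustment over all 130806 sites. Called sites were sorted by their surroundings. A run was 3 or more successive tested sites called in the same direction with steps of at most 100 bp, and a lone site had no other site called in its direction within 100 bp. The sequences below were put together from the 5-base contexts in the data, on the plus strand of UMD3.1, with the called CGs in capitals. The first 4 carry gains in runs, where the lactating gland was higher:
chr6:107287991-107288042: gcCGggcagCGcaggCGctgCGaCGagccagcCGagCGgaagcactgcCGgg
chr28:1894790-1894901: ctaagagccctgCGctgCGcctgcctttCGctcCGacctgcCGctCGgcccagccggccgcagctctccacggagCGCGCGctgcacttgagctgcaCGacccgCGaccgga
chr13:55346094-55346142: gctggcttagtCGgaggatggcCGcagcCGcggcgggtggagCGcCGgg
chr27:36960108-36960150: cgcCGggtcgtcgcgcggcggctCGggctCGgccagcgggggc
The next 5 carry losses in runs, where the lactating gland was lower:
chr7:31762581-31762630: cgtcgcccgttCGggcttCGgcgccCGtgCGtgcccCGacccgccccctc
chr20:72019762-72019805: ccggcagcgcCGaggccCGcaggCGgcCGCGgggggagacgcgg
chr25:32361778-32361815: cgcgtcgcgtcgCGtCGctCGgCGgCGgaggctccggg
chr26:7036165-7036213: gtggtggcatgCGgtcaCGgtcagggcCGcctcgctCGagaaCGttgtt
chr25:38341069-38341089: ccCGggCGggccttccagagg
The last 4 show lone sites, in which 1 CG was called and the lower-case CGs beside it were not:
chr22:60485492-60485513: gccggggCGggcagcgtgcggc
chr28:4546245-4546269: gccggcctcggCGggtgggcaggcc
chr25:39504492-39504517: caaggacggggcCGcggcggcacccg
chr22:59205735-59205748: cggggcgggcCGtc

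Over all tested sites the glands were close. The mean level was 29.0 % in the lactating and 28.6 % in the juvenile library, a mean difference of 0.387 points with an SD over sites of 9.69. Counting error alone gave a 95 % interval of 0.350 to 0.424 points for it, and the variation between animals has no estimate here. When each site was weighted by its reads, the order turned round, with 41.2 % in the lactating and 44.0 % in the juvenile library, so no direction is drawn from the mean. The levels of both libraries had a Pearson's r of 0.970 across sites, which are not independent, and 83.6 % of the sites were under 10 points apart. The median site had 30 reads in the lactating and 24 in the juvenile library. The reads over all cytosines summed to 24319404 and 21584947.

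Of the 130806 sites, 443 were called (0.339 %), with 182 gains (0.139 %) and 261 losses (0.2 %). Gains were 41.1 % of the calls (Wilson 95 % interval 36.6 to 45.7 %, counting error only). Neighbouring sites share reads, so this interval is too narrow. A difference of at least 25 points was found at 5022 sites without regard to the test, and among these the lactating gland was the higher at 2694 and the lower at 2328. Losses were thus the majority among called sites and the minority among all differences of that size. The smallest called difference was 25.09 points and the largest that missed only the size rule was 24.99 points. Of 688 sites with a q below 0.01, 245 were under 25 points apart, and at 42 of these the lactating gland was the higher.

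Losses gathered at deeply read sites. At 3209 sites the other 8 tissues had a median of over 100 reads, and these sites held 123 of the 261 losses and 25 of the 182 gains, or 3.83 % and 0.779 % of the sites in that class. At 78089 sites where that median was up to 30, 60 losses and 49 gains were called, and at 48143 sites in between the gains led with 108 against 76. The calls also moved with the balance of reads between both mammary libraries. Where the juvenile library had over 2-fold the reads of the lactating one, 96 losses and 5 gains were called among 2209 sites. Where the lactating library had over 2-fold the reads, 33 gains and 20 losses were called among 10784 sites. Where the reads were within 2-fold, the 117813 sites gave 145 losses and 144 gains. With the test repeated on those sites alone, an alternative added after seeing the data, 118 losses and 124 gains were called. After the deeper library was thinned at each site to the reads of the other, 182 losses and 95 gains were called. The part of depth in the surplus of losses was not tested further.

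**Figure D1:**
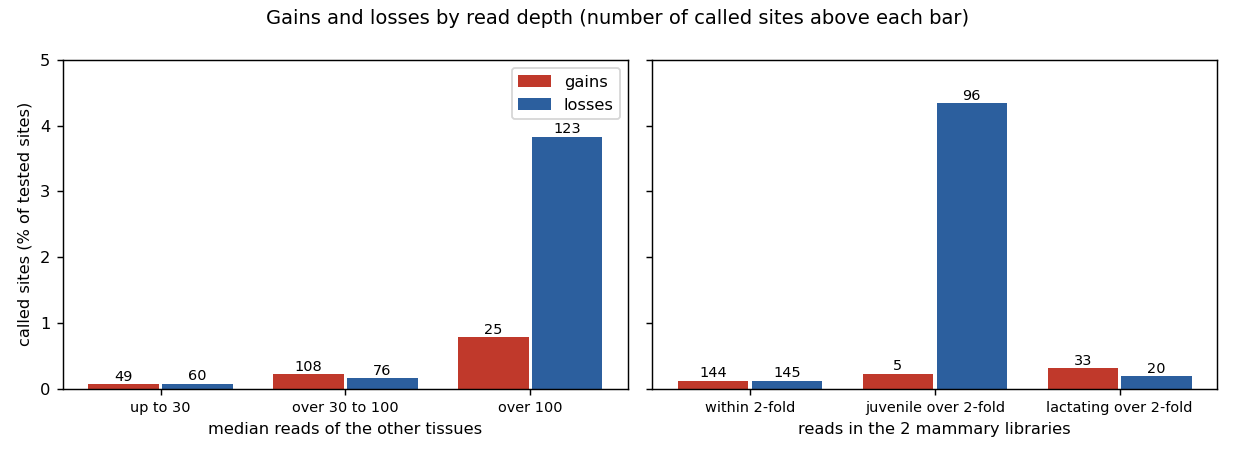
Called sites as a percentage of tested sites, gains in red and losses in blue, by the median reads of the other 8 tissues (left) and by the balance of reads between both mammary libraries (right), with the number of calls above each bar. Losses stand out at 123 sites with over 100 reads in the other tissues and at 96 sites where the juvenile library had over 2-fold the reads, while 144 gains and 145 losses were called where reads were within 2-fold.

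Runs held 80 of the 443 called sites (18.1 %) and lone sites 205 (46.3 %). The other 158 (35.7 %) had called company of the same direction within 100 bp but formed no run. Gains made up 33 of the 80 run sites (41.3 %, Wilson interval 31.1 to 52.2 %) and 75 of the 205 lone sites (36.6 %, interval 30.3 to 43.4 %). These intervals overlapped, which is not a test of a difference. The 80 run sites come from 17 runs, 5 of gains and 12 of losses, and share reads, so their interval is too narrow. A difference in the share of gains between runs and lone sites was not tested. The share at run sites also moved with the rules, from 0 % (0 of 22) with a Bonferroni adjustment to 77.4 % (24 of 31) with a minimum of 40 points, while at lone sites it ran from 33.7 to 50 %. Among the sites that were neither, 74 were gains and 84 losses.

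The levels of the called sites are given by kind. Run sites at gains had a median of 75.9 % in the lactating and 20 % in the juvenile gland, while at losses the medians were 5.88 % and 41.3 %. None of the 80 run sites passed from within 10 points of one end of the scale to within 10 points of the other. Of the 205 lone sites 30 did. The 80 run sites come from 17 runs and share reads, so they are far fewer than 80 observations. Their median reads were 76.5 in the lactating and 86 in the juvenile library, against 40 and 34 at lone sites. No difference between the kinds is drawn from these counts. Lone gains had medians of 93.9 % in the lactating and 34.8 % in the juvenile gland, and lone losses of 27.0 % and 89.6 %. At 18 run gains the level passed from 10 to 30 % in the juvenile to 70 to 90 % in the lactating gland, and at 33 run losses it passed from 30 to 70 % to at most 10 %.

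**Figure D2:**
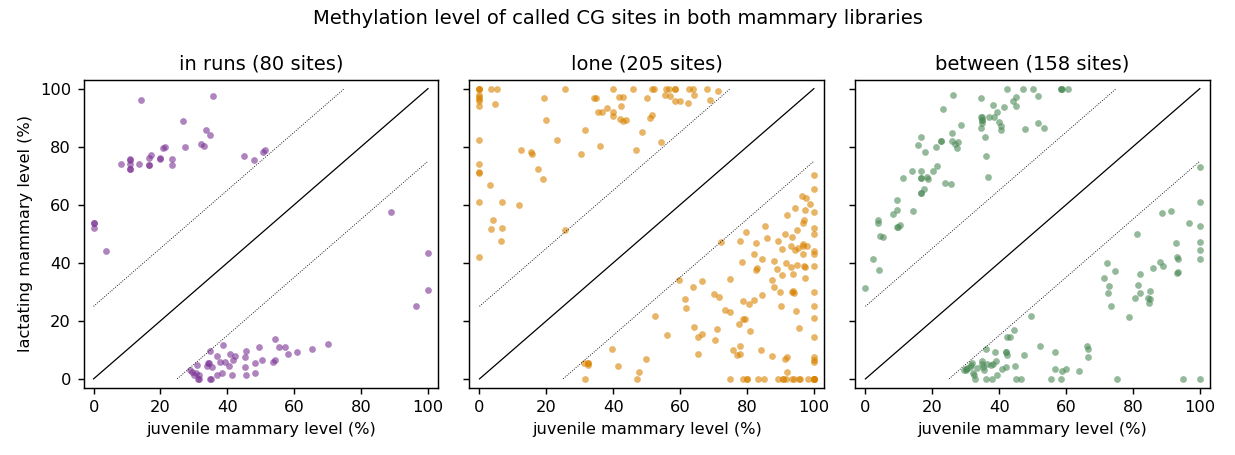
Level of each called CG site in the juvenile (horizontal, %) and the lactating mammary gland (vertical, %), for the 80 sites in runs, the 205 lone sites and the 158 sites between, with equality as a solid line and 25 points as dotted lines. Lone sites reach the upper left and lower right corners, where 30 of them pass from one end to the other, and no run site does. The 80 run sites come from 17 runs and share reads.

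The 17 runs comprised 5 gain runs with 33 sites and 12 loss runs with 47 sites. Gain runs spanned up to 48 bp with 3 to 14 sites, and loss runs spanned up to 32 bp with 3 to 5 sites. Joined with called sites of the same direction within 100 bp they formed 5 gain and 9 loss stretches, with 43 and 57 called sites. Within a stretch the sites are read largely from the same DNA fragments, so a stretch is closer to 1 observation than to as many as it has sites.

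The longest run was a gain at chr6:107287993-107288040, where all 14 tested sites in 8 CGs were called. The levels were 72.2 to 79.5 % in the lactating and 8.11 to 23.3 % in the juvenile gland, at medians of 47.5 and 33.5 reads. Both strands showed it, with 74.0 against 10.8 % on the plus strand and 75.6 against 19.6 % on the minus strand, which come from different molecules. The other tissues ranged from 12.5 % in rumen to 52.4 % in abomasum. The lactating gland was thus above all 8 and the juvenile gland was above rumen alone. Non-CG cytosines in the same reads had mean levels of 1.01 and 0.446 %.

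At chr13:55346106-55346140 the gain appeared from an almost empty state. The 5 called sites had 51.9 to 54.9 % in the lactating gland from 51 to 52 reads, and 0 to 3.85 % in the juvenile gland from 26 to 29 reads. Among them lay 2 CGs that had no methylated read in either library, seen in lower case in the sequence. Testis stood at 16.8 % over these called sites, and the other 7 tissues were between 0 and 3.62 %. Only the minus strand was read there, and the 22 tested sites within 100 bp around it had means of 5.35 and 5.43 %.

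At chr28:1894802-1894895 the called sites lay in a broader difference. The 30 tested sites had means of 81.0 % in the lactating and 51.8 % in the juvenile gland, and 15 of them were called. The lactating level was the lower at only 1 of the 30. The surrounding 31 sites had 79.3 and 67.5 %, and the lactating level was the higher at 22. They also held 2 called losses on the minus strand, with differences of -32.3 points at 1894922 and -27.1 points at 1894926, so the direction did not hold along the whole region. At the 15 called sites the means were 80.3 % in the lactating and 39.7 % in the juvenile gland, and the other tissues stood between 45.8 % in frontal cortex and 68.4 % in rumen.

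At chr27:36960111-36960137 all 14 tested sites were higher in the lactating gland, 69.7 against 27.0 % in the mean, though 4 passed both thresholds. At chr3:8105685-8105726 the 5 called sites had means of 84.8 and 21.4 %. At 2 of these CGs the opposite strand did not share the gain. The minus strand had 97.7 against 26.3 % at 8105685 and 88.8 against 26.7 % at 8105697, while the plus strand had 88.5 against 93.5 % and 86.8 against 81.5 %. That stretch was read 207.5 times in the median in the lactating library and 17 times in the juvenile one, and 15 to 30 times in the other tissues. Its non-CG cytosines reached 49.2 % in the lactating and 88.5 % in the juvenile library, unlike those of the chromosome 6 run. The gain runs thus differed among themselves in starting level, from a mean of 1.51 % at the called sites of chromosome 13 to 39.7 % at those of chromosome 28.

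The loss stretch with the largest difference was chr25:38341071-38341076. Its 3 called sites were methylated in 29 of 29, 28 of 29 and 26 of 26 juvenile reads, and in 11 of 36, 9 of 36 and 16 of 37 lactating reads. The means were 98.9 and 32.9 %. The other tissues lay between 89.7 and 100 %, so the lactating gland stood apart from all 9 other libraries at the sites they covered. Testis and abomasum were read at only 1 of the 3 sites, on 18 and 10 reads.

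The remaining loss stretches started from partial methylation. At chr7:31762592-31762617 the 9 called sites had a mean of 47.9 % in the juvenile and 6.53 % in the lactating gland. Over all 11 tested sites the medians were 355 and 105 reads. Over those 11 both strands were lower in the lactating gland, 46.7 against 7.62 % on the plus and 38.6 against 3.999 % on the minus strand. At chr26:7036177-7036208 the 5 sites had 47.0 and 8.40 %. At chr25:32361790-32361803 they had 43.3 and 7.84 %, with 2486 juvenile reads in the median against 51 lactating ones.

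The broadest loss stretch was chr25:32472604-32472705, which held 3 runs. Over all 43 tested sites the means were 3.16 and 27.0 %, at medians of 81 lactating and 90 juvenile reads. The reads were less even where the runs lay, with juvenile to lactating ratios of 2.53 to 3.35 in the 3 runs. The 18 called sites had means of 3.15 and 37.9 %. The 13 tested sites around it had 1.49 and 24.0 %, all lower in the lactating gland. At the same 18 called sites nucleated blood cells had the highest level of the other tissues, 42.5 %, and testis the lowest, 13.99 %.

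At chr20:72019773-72019792 neighbouring CGs kept their own levels on the same reads. The juvenile levels of the 5 sites ranged from 34.3 to 89.1 % at 1492 reads and the lactating ones from 5.36 to 57.4 % at 391 reads or 1 more. The site highest in one library was the highest in the other. The other tissues averaged 41.6 to 56.1 % there and were all nearer the juvenile gland. The 2 tested sites beside the stretch did not share its direction throughout, and neither was called. At 72019764 the lactating level was the higher, 42.6 % on 197 reads against 22.0 % on 760. At 72019770 it was the lower, 6.12 against 25.4 %.

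**Figure D3:**
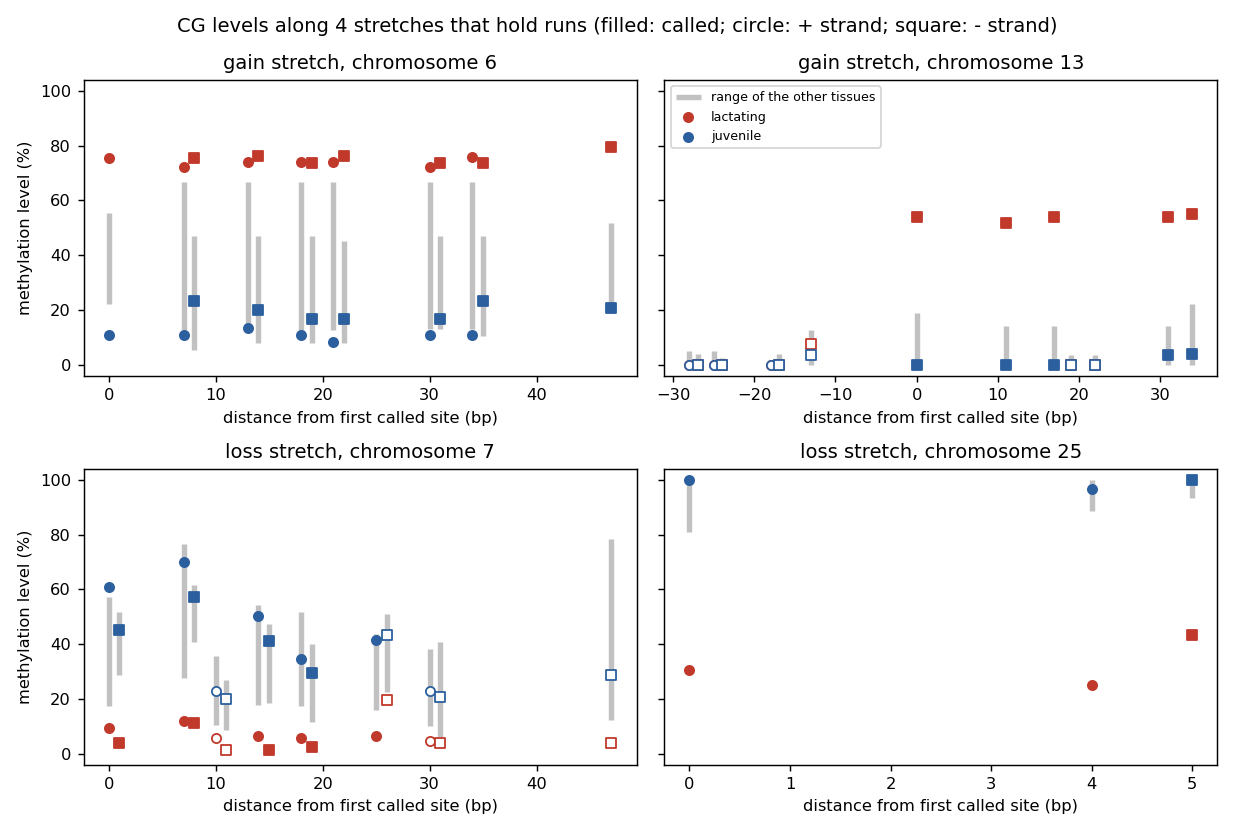
Methylation level (%) of tested CG sites against the distance in bp from the first called site, for gain stretches on chromosomes 6 and 13 and loss stretches on chromosomes 7 and 25, with lactating in red, juvenile in blue, filled marks for called sites and grey bars for the range of the other tissues. The lactating sites lie at 72.2 to 79.5 % on chromosome 6 and above 50 % at the 5 called sites on chromosome 13, and below the juvenile sites on chromosomes 7 and 25.

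Most loss stretches shared an order of tissues that the calls did not use. In 7 of the 9, testis was the lowest and rumen the next of the other 8 tissues, nucleated blood cells were the highest or next to it, and the lactating gland was below all 8. These 7 held 49 called sites and lay on chromosomes 7, 25 and 26, with 4 of them within 110.9 kb of chromosome 25. They include chr7:14212742-14212763, chr25:32365042-32365054 and chr25:32367682-32367686, which were singled out after their values were seen. In these 7 the other tissues had medians of 134.5 to 3042.5 reads, far above the 30 and 24 reads of the typical site. In 10 of the 12 loss runs the juvenile library had over 2-fold the reads of the lactating one, and in none of the 5 gain runs. Whether the 7 are separate loci or copies of 1 repeated sequence was not tested, so their 49 sites and their shared order may amount to fewer observations. The losses outside the 7 stretches numbered 212.

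By position, the 1-Mb window of chromosome 25 that starts at 32000001 held 34 losses and no gain among 246 sites. The window of chromosome 28 that starts at 1000001 held 21 gains and 2 losses among 150, and that of chromosome 6 at 107000001 held 14 gains among 329, all in the run above. Of 2013 windows with tested sites, 179 held a call and 23 held at least 5, and these 23 contained 209 of the 443 calls. Their share of the tested sites was not counted, so no excess is drawn from this. Chromosome 25 gave 47 losses to 13 gains among 6617 sites (0.710 and 0.196 %), and chromosome 7 gave 34 to 6 among 5481 (0.620 and 0.109 %). Chromosome 28 gave 2 losses to 22 gains among 1662 (0.120 and 1.32 %). All tested sites stood at 0.2 % losses and 0.139 % gains. The windows above held 34 of the 47 losses of chromosome 25 and 21 of the 22 gains of chromosome 28, so these counts largely repeat them.

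Of the 205 lone sites, 199 had a tested neighbour within 100 bp, with a median of 7 such neighbours, against 13 at run sites. The lone gain named first by size and reads was chr22:60485500, methylated in 37 of 37 lactating and 0 of 32 juvenile reads (Wilson intervals 90.6 to 100 % and 0 to 10.7 %). Its 8 tested neighbours averaged 93.8 and 92.96 % and differed by at most 14.9 points. The other tissues were split there, with 0 % in frontal cortex and rumen, 2.38 % in ileum, and 51.3 to 71.9 % in nucleated blood cells, testis, skeletal muscle and uterus.

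The site chr28:4546256 was methylated in 27 of 27 lactating and 0 of 25 juvenile reads, beside 6 neighbours at 91.7 and 88.3 %. Other tissues ran there from 0 % in frontal cortex, ileum and rumen to 92.3 % in testis. At chr14:2377617 the levels were 45 of 47 and 0 of 22 reads, and at chr22:59714320 they were 52 of 52 and 40 of 778 reads. At the last of these all 8 other tissues were between 1.49 and 6.71 %, on 201 to 986 reads. The opposite strand of the same CG did not share the gain, with 1.64 % on 244 lactating and 3.13 % on 64 juvenile reads, so the difference held for 1 strand. For the other 7 named lone sites the opposite strand was not among the tested sites.

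The 4 named lone losses stood apart from every other tissue read. At chr25:39504504 none of 34 lactating reads and 45 of 45 juvenile reads were methylated (Wilson intervals 0 to 10.2 % and 92.1 to 100 %), and the other tissues had 91.7 to 100 %. Its 10 neighbours averaged 88.3 and 94.1 %. At chr22:59205746 the reads were 0 of 41 and 58 of 59, beside 94.1 to 100 % in the other tissues. At chr21:70504285 they were 0 of 40 and 32 of 34, beside 80 to 100 %. At chr24:49027516 they were 0 of 23 and 21 of 21, with 5 other tissues read at 93.8 to 100 %.

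At most lone sites the gap to the neighbours was larger in the library with the lower level. At 125 lone losses with tested neighbours the lactating level averaged 26.6 % amid neighbours at 68.0 %, while the juvenile level averaged 83.6 % amid neighbours at 74.2 %. The gap to the neighbours was larger in the lactating library at 95 of the 125. At 74 lone gains the juvenile level averaged 30.6 % amid 66.0 %, the lactating level 87.0 % amid 72.7 %, and the gap was larger in the lactating library at 22. At run sites, site and neighbours were close in both libraries. Run losses had 8.51 % amid 8.88 % in the lactating and 47.1 % amid 38.4 % in the juvenile gland. Neighbours of a lone site are by definition not called in its direction, and here they averaged 66.0 to 74.2 %. Beside such high neighbours the lower level tends to lie farther away. Neighbours of a run site include called sites of its own run. These gaps are thus partly fixed by the definitions and do not show which library departed. A C-to-T difference between an animal and the reference, read as an unmethylated cytosine, was not tested.

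**Figure D4:**
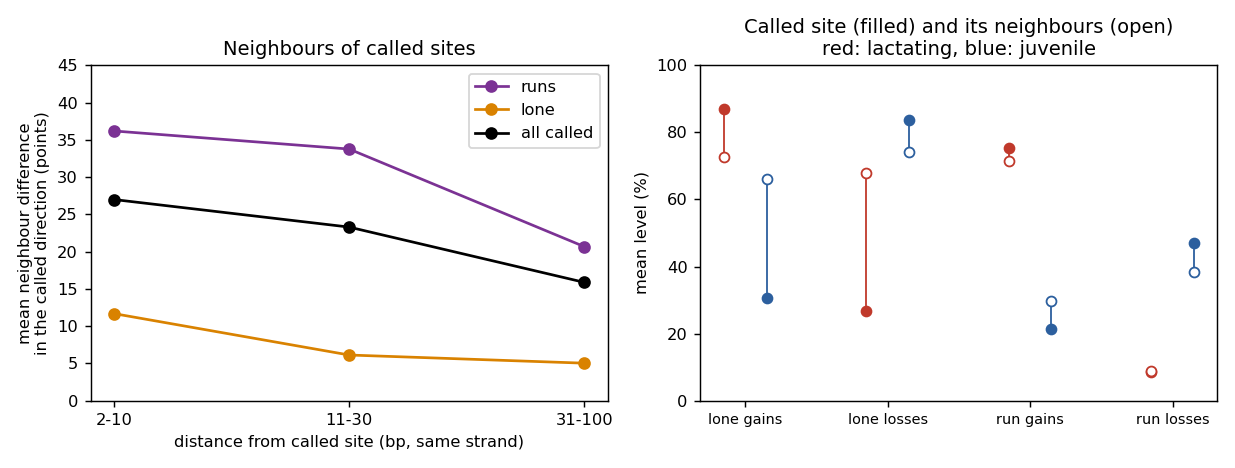
Left, the mean difference (points, in the called direction) of tested sites on the same strand as a called site, by distance in bp, for runs, lone sites and all called sites. Right, the mean level (%) of called sites (filled) and of their neighbours within 100 bp (open), where lone losses drop to 26.6 % in the lactating gland amid neighbours at 68.0 %, and run sites lie near their neighbours.

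Differences spread to neighbouring sites over short distances. Tested sites on the same strand within 2 to 10 bp of a run site differed by 36.2 points in its direction in the mean, and those at 31 to 100 bp by 20.7 points. Around lone sites these values were 11.7 and 5.02 points. The cytosine of the same CG on the opposite strand, tested for 243 called sites, was at least 25 points apart in the same direction at 123 (50.6 %, Wilson interval 44.4 to 56.8 %). Over all tested pairs of strands this was met at 1.68 % for gains and 1.30 % for losses. The share was 45 of 50 in runs and 23 of 80 at lone sites (28.8 %, interval 19.99 to 39.5 %). Runs and lone sites are defined by whether neighbours were called, and the opposite strand counts as a neighbour, so these contrasts are partly fixed by the definitions. At lone sites the opposite strand differed by a median of 10.9 points in the called direction, with a median of 24 reads in the less read library.

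A CCGG was present at 44 of 205 lone sites (21.5 %, interval 16.4 to 27.6 %) and 6 of 80 run sites (7.5 %, interval 3.48 to 15.4 %). All tested sites stood at 17.9 %. The 80 run sites come from 17 runs, so their interval is too narrow and no difference from the other sites is drawn from it. The median number of tested neighbours over all sites was 11, between those of lone and run sites. Levels in the other tissues were also compared. At 34.5 % of lone sites with at least 4 other tissues read, those tissues spanned 50 points or more, against 7.5 % of run sites and 7.16 % of all tested sites. The run share came from 6 of 33 gains and 0 of 47 losses. The other tissues had a median of 38.25 reads at lone sites and 135 at run sites, and fewer reads widen a span. Among all tested sites 65.5 % were below 20 % in each mammary library. These shares are thus not matched for depth or level, and no difference is drawn from them. For the 30 lone sites that passed between opposite ends, the other tissues of the 19 losses gave 122 values, of which 80 were within 10 points of the juvenile end, none at the lactating end and 42 between. For the 11 gains 30 of 58 values were at the juvenile end and 4 at the lactating one.

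The other 8 tissues took no part in the calls, and their level at called sites could be placed on a scale from 0 at the juvenile to 100 at the lactating mean. At gains in runs they stood at 28.5 ± 13.0 (SD, n = 8), and each of the 8 was nearer the juvenile gland (two-sided exact permutation test by sign flips against 50, p = 0.0078125, the lowest value possible with 8 tissues, adjusted p = 0.0104 over 4 sets). At lone gains they stood at 30.2 ± 9.09 and at lone losses at 17.1 ± 9.67, with 8 of 8 nearer the juvenile gland and the same exact p for each. At losses in runs they stood at 19.5 ± 23.6, with 7 of 8 nearer the juvenile gland (exact permutation p = 0.0234, adjusted p = 0.0234). Testis was the exception at 56.4.

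The call for gains in runs was lost in 3 alternatives, at an adjusted exact permutation p of 0.117 with reads thinned, 0.578 with strands pooled and 0.0625 without sites that follow a covered CHG cytosine. The other 3 sets kept an adjusted p below 0.05 in every alternative run. The 8 tissues come from related animals and the sites of a set share reads, so the test covers the spread over these tissue libraries only. All 8 positions are also set against the same 2 mammary libraries, at sites chosen because these differ. If 1 of the 2 is unusual there, all 8 positions shift together. The 8 are thus not independent, and the p-values carry no conclusion about the stages. The 33 run gains come from 5 runs. Frontal cortex, abomasum, ileum and rumen were themselves juvenile or fetal. The adult tissues, skeletal muscle, testis, uterus and blood cells, stood at 17.4 to 41.4 for gains in runs, 28.7 to 43.2 for lone gains, -10.7 to 56.4 for losses in runs and 5.49 to 35.3 for lone losses. A test by age of the tissue was not made.

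**Figure D5:**
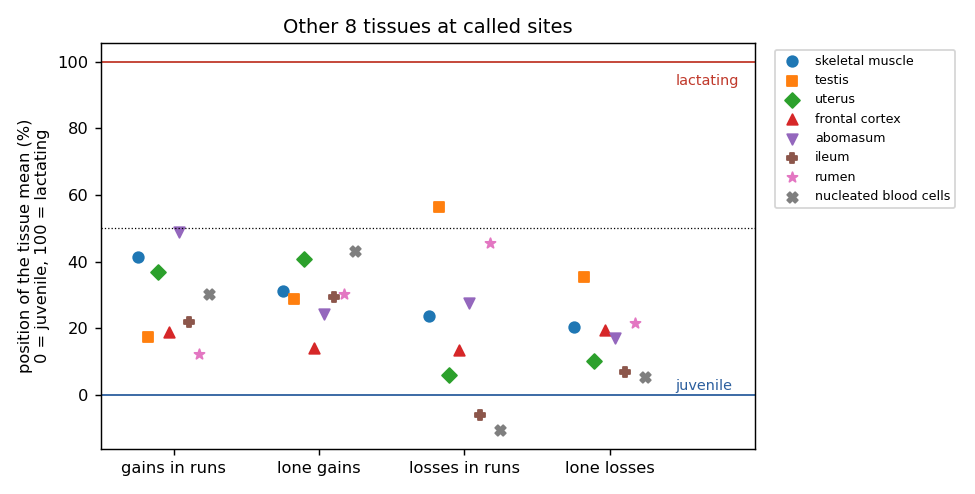
Mean level of each of the other 8 tissues at the called sites, on a scale where 0 is the mean of the juvenile and 100 that of the lactating mammary gland, for gains and losses in runs and at lone sites. All positions lie below 50 apart from testis at losses in runs, which stands at 56.4.

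Site by site, the share of sites nearer the juvenile gland varied by tissue. Over the tissues it ran from 57.6 to 100 % at gains in runs and from 55.6 to 79.2 % at lone gains. At losses in runs it was 24.4 % in testis, 48.9 % in rumen and up to 100 % in others, and at lone losses 61.2 to 92.1 %. The mammary levels were also set against the range of the other tissues. Among run gains the lactating level alone lay outside the range of the other tissues at 22 of 33 sites and both mammary levels did at 11, and among run losses these counts were 43 and 4 of 47. At lone losses with at least 4 other tissues read, the lactating gland alone was outside at 91 of 122 and the juvenile gland alone at 11. At lone gains these counts were 41 and 10 of 72. The gains that were neither lone nor in runs went the other way, with the juvenile gland alone outside at 35 of 72 and the lactating gland alone at 17. The share outside was not counted over all tested sites. Called sites were chosen because the glands differ, which itself tends to put a gland outside the range. These counts thus do not show which gland is unusual.

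Among the 45 pairs of tissues the mammary pair was one of the closest. Its 0.339 % of called sites compared with 0.221 to 8.07 % in the other 44 pairs (median 1.01 %), of which 3 were lower. Its r of 0.970 was above that of 41 of them. At the sites read in all 10 tissues, with reads thinned to the lowest coverage, 0.793 % of sites were at least 50 points apart in the mammary pair, and 2 of the 44 other pairs were lower. By the number of calls on those thinned reads 24 of the 44 were lower, so the rank depends on the measure. Against the same 8 tissues the lactating gland was the more distant by the thinned share of sites 50 points apart in 8 of 8 tissues, and by the thinned calls in 7 of 8. Pairs share libraries, and no test was made.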

How the data were processed

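Reduced representation bisulphite libraries of 10 bovine tissues, 1 each, were used, and lactating and juvenile mammary gland were compared. The authors trimmed the reads, aligned them with SOAPaligner to UMD3.1 (version 3.1 also in the submitters' notes) and deposited, for each cytosine and strand, a count of reads and the fraction of them methylated. The product of both was a whole number within 2.91e-11 and gave the methylated reads. A C-to-T difference between an animal and the reference is read as an unmethylated cytosine, which was not tested. Sites with at least 8 reads in both libraries were compared by Fisher's exact test, which compares these libraries and not the stages. Named runs were the 8 per direction with most called sites, then largest difference, and named lone sites the 4 per direction with the largest difference, at least 20 reads in both libraries and 2 uncalled neighbours. The members, the rules and the tests were chosen with earlier results of these data known. Position scores of the other tissues were tested by exact sign flips. Gene lists and cell type markers need an annotation of UMD3.1 and were not used here. Wilson intervals cover counting error only, since PCR reads carry no molecular identifiers. Python 3.11.15, NumPy 2.4.6, SciPy 1.17.1, pandas 2.3.3 and matplotlib 3.10.9 were used, and the scripts were tested on simulated data.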

Additional observations from a re-analysis of the deposited data

Results flagged for a closer look

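Differences by the same rule were also called outside the autosomal CG sites. Apart from the non-CG levels given for the stretches on chromosomes 6 and 3, these data entered no comparison above. Non-CG cytosines of the autosomes gave 76 calls among 282145 sites (0.0269 %, Wilson 95 % interval 0.0215 to 0.0337 %), 42 higher and 34 lower in the lactating gland, where a count of 0 would have allowed up to 0.00106 %. CG sites of chromosome X gave 10 calls among 3052 (0.328 %, interval 0.178 to 0.602 %), close to the 0.339 % of the autosomes. CG sites of unplaced sequence gave 16 calls among 1245 (1.29 %, interval 0.793 to 2.08 %), with 4 gains and 12 losses, a share above that of the autosomes. Their mean levels were 61.2 and 61.7 %, against 29.0 and 28.6 % on the autosomes. Autosomal sites at 20 to 80 % in the juvenile library were called at 1.49 %. The share was not matched for level or depth, so no excess is drawn from it. The 12 CG sites of the mitochondrial genome gave 0 calls, which allows a share of up to 25 %.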

How the results depend on the processing

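With 1 library per group no replicate could be left out, and no paired analysis was possible because no group had a second sample. Of 161 alternative values of the main results, 111 kept their direction and stayed within the bounds set for the value. The mean difference became 0.444 points at a minimum of 20 reads, 0.346 with strands pooled, 0.426 within 2-fold reads and -2.76 when weighted by reads. With reads thinned, 95 gains were called, in 10 runs, with gains at 20.9 % of run sites and 34.3 % of calls, and the tissue position at run gains was 34.6. Pooled strands gave 292 gains, 44 runs holding 30.9 % of calls, gains at 62.2 % of run sites, 43.5 % of lone sites and 50.2 % of calls, and a position of 46.5. The position was 35.5 without sites after a covered CHG cytosine. Bonferroni adjustment left 49 gains and 133 losses, 5 runs with 12.1 % of calls, and gains at 0 % of run sites and 26.9 % of calls. Without a test there were 2694 gains and 2328 losses, 247 runs with 23.0 % of calls, 37.0 % lone sites, and gains at 58.6 % of run sites, 50 % of lone sites and 53.6 % of calls. At 40 points there were 161 losses, 6 runs with 9.81 % of calls, 54.7 % lone sites, and gains at 77.4 % of run sites and 49.1 % of calls. Within 2-fold reads there were 118 losses, 6 runs with 12.8 % of calls, 53.3 % lone sites, and gains at 67.7 % of run sites and 51.2 % of calls. Runs of at least 2 sites numbered 43 with 29.8 % of calls, and of at least 5 sites 6 with 9.71 % of calls and 53.5 % gains. A minimum of 20 reads put 25.5 % of calls in runs. With 20 reads on the opposite strand, 58.2 % differed there in the same direction. The cause of these changes was not tested. Thinning left 267 of the 443 calls (60.3 %), and 40 points left 316. The named lone sites were called in every alternative that kept them, in 46 of 46 values, and the named runs still held a run in 45 of 72. The lone sites were named for the largest differences at 20 reads or more, so their outcome was largely fixed by that choice. By the reads of the less read library, 0.0768 % of sites were called at 8 to 15 reads and 2.78 % at over 100, where 60 losses and 5 gains were called.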
